A study of Homo sapiens with 6 samples.

Results

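HERVH48 is a family of endogenous retroviruses, the remains of proviruses that entered the genome of primate ancestors. HERVH48-int names its internal, protein-coding part and MER48 the long terminal repeat (LTR) that flanks it. Both were picked by row name, 2 of the 15600 repeat names in the deposited count table, with their levels in the 3 groups already known. The levels below are therefore a description, and no test is given for them.

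All 6 libraries are of total RNA from H9, a widely used line of human embryonic stem cells, with 2 libraries a group, made with a kit that keeps the strand. Primed cells were grown in mTeSR. The RSeT group was grown in RSeT, a commercial medium for a naive-like state, and the RSeT+DT group in RSeT with 10 nM DZNep and 5 nM TSA for 48 hours. DZNep blocks S-adenosylhomocysteine hydrolase and so lowers histone methylation by PRC2, while TSA inhibits histone deacetylases. RSeT+DT received both agents, so the effect of either alone cannot be told apart, and the labels name no vehicle control. Repeat counts summed to between 11520770 and 38312112 a library, with RSeT replicate 1 the deepest. The labels do not say that replicates were separate cultures, so every spread below may be technical. Genes that mark pluripotent cells were not analysed here, since both tables list repeats alone.

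A provirus is transcribed from its upstream LTR, which acts as the promoter, through the internal part and into the downstream LTR, where the RNA ends. LTRs of HERVH, a family of similar name, are called LTR7 and are active promoters in human pluripotent cells. The best known copy of HERVH48 is the gene ERVH48-1, whose envelope-derived protein, suppressyn, is secreted by trophoblast. Suppressyn binds ASCT2, the receptor of syncytin-1, and so restrains the cell fusion that syncytin-1 drives in the placenta.

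ERVH48-1 shows what a HERVH48 transcript looks like, although the counts cannot be assigned to it. In GENCODE release 29 (GRCh38) the gene lies on the minus strand at chr21:42916803-42925646 and is annotated as a lincRNA. Its longer transcript has 2790 bases in 2 exons, exon 1 at chr21:42925346-42925646 and exon 2 at chr21:42916803-42919291. A retroviral RNA carries the same stretch of LTR at both ends, and here the first 82 bases recur as the last 82 with 90.2% identity. Its longest open reading frame, from an ATG, has 160 codons and lies within exon 2 at chr21:42918524-42919006. A search of 206694 GENCODE transcripts found 2 other genes with at least 1000 bases aligned to it, AC116553.2 on chromosome 16 (1748 bases, 84.1% identity) and AL591623.1 on chromosome 1 (1460 bases, 88.2%). Both align to its opposite strand, and the strand setting of the counting is not given in the sources used here.

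The opening 150 bases of the reading frame of ERVH48-1 are shown with the matching stretch of AC116553.2 as an example of how far related copies differ. Whether the row HERVH48-int counts reads from either is not known here. Both are on the minus strand of GRCh38, at chr21:42918857-42919006 and chr16:35904417-35904566. Capitals mark the start codon in the first and, in the second, the 18 bases that differ, which leaves 88% identity.
ERVH48-1: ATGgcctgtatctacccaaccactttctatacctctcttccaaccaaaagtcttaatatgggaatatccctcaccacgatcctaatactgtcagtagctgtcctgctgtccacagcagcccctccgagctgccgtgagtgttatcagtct
AC116553.2: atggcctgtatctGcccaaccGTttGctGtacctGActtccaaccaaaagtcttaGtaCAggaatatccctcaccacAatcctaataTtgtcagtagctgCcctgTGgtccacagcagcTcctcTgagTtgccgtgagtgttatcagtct

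HERVH48-int, the internal part, was lowest in primed cells, with 1311 and 1097 counts, or 77.9 and 80.5 CPM, which are counts scaled to the same total of repeat counts in every library. RSeT cells had 26001 and 11660 counts, or 678.7 and 678.3 CPM, and RSeT+DT cells 13460 and 11824 counts, or 1030.4 and 1026 CPM. Each group stood apart from the others, in the order primed, RSeT, RSeT+DT. Group levels were 79.2 ± 1.86, 679 ± 0.284 and 1028 ± 2.82 CPM (mean ± SD, n = 2 each). The replicates lay as close as counting allows: in RSeT cells they differed by 0.00085 on the log2 scale, where counting error alone has a standard error of 0.016. The same difference was 0.048 in size in primed cells, against a counting error of 0.059, and 0.0056 in RSeT+DT cells, against 0.018.

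As a share of all repeat counts, HERVH48-int took 0.00779% (95% exact binomial interval 0.00737 to 0.00822) and 0.00805% (0.00758 to 0.00854) in primed replicates 1 and 2. It took 0.0679% (0.0670 to 0.0687) and 0.0678% (0.0666 to 0.0691) in the RSeT replicates. In RSeT+DT cells it took 0.103% (0.101 to 0.105) and 0.103% (0.101 to 0.104). The family is thus a small part of the repeat RNA in each group. Its intervals, which cover counting error only, do not overlap between groups, but for how many other features this holds was not counted.

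MER48, the LTR, followed the same order at lower counts. It had 450 and 348 counts in primed cells (26.7 and 25.5 CPM), 6623 and 2857 in RSeT cells (173 and 166 CPM) and 3277 and 2735 in RSeT+DT cells (251 and 237 CPM). No library of a group overlapped with another group. Of the 1232 tested features other than simple repeats, 30, or 2.44%, had this order of CPM with no overlap, both members among them. Groups without overlap were common in single comparisons: 43.2% of these features were higher in both RSeT than in both primed libraries and 31.7% lower, and 5.52% and 83.9% in RSeT+DT against RSeT. Group levels were 26.1 ± 0.842, 169.5 ± 4.72 and 244 ± 9.51 CPM (n = 2 each). Replicate 1 was above replicate 2 by 0.066, 0.057 and 0.079 on the log2 scale in the 3 groups, against counting errors of 0.10, 0.032 and 0.037, so the RSeT and RSeT+DT replicates differed by more than 1 counting error.

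**Figure D1:**
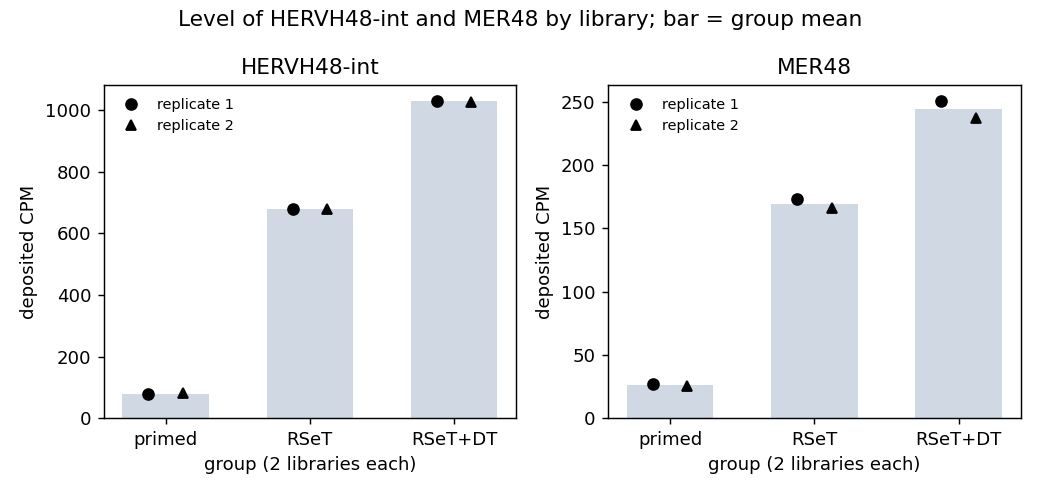
Deposited CPM (y axis, from 0) of HERVH48-int (left) and MER48 (right) in the 3 groups, with each library as a point and the group mean as a bar. Both stand lowest in primed and highest in RSeT+DT cells, and the RSeT replicates of HERVH48-int sit together at 678.7 and 678.3 CPM.

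RSeT against primed cells compares the naive-like with the primed culture. HERVH48-int had a log2 fold change of 3.23 (SE 0.049) in the edgeR fit with TMM scaling, a 9.39-fold higher level, and MER48 one of 2.83 (SE 0.058), or 7.10-fold. On the deposited CPM, which carry no TMM factor, single libraries of the 2 groups differed by 8.43- to 8.72-fold for HERVH48-int and by 6.22- to 6.77-fold for MER48. Of all 4665 features tested 46.6% passed in edgeR's quasi-likelihood test (adjusted p below 0.05), 22.8% higher and 23.8% lower. Of the 1232 other than simple repeats, 51.1% were higher and 8.69% lower, with a median log2 fold change of 0.17. Scaled on interspersed repeats alone, without small RNA, ribosomal RNA, satellites and simple repeats (interspersed scaling), these shares were 29.1% and 23.5%, with a median of 0.0071. With library totals they were 30.5% and 17%.

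A larger fold change than that of HERVH48-int was seen for 4 of these features. They were ALR/Alpha, the alpha satellite of centromeres (6.05), ACRO1, another satellite (6.05), HERVK-int, from a young family of human retroviruses (5.98), and its promoter LTR5_Hs (3.66), each higher in edgeR. MER48 came directly after HERVH48-int in this order. The internal part of HERVH stood at 1.70 (SE 0.026) and LTR7 at 1.60 (SE 0.032).

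RSeT+DT against RSeT cells compares cells with and without DZNep and TSA. HERVH48-int had a log2 fold change of 0.75 (SE 0.044), or 1.69-fold, and MER48 one of 0.68 (SE 0.046), or 1.60-fold. On the deposited CPM the libraries differed by 1.51- to 1.52-fold for HERVH48-int and by 1.37- to 1.51-fold for MER48. In this comparison 42.4% of the 4665 features passed in edgeR, 25% higher and 17.4% lower. Of the 1232 other than simple repeats 6.41% were higher and 52.6% lower, with a median of -0.22. Interspersed scaling gave 21% and 18.4%, with a median of -0.0011, and library totals 3.08% and 70.8%, with a median of -0.37. HERVH48-int stood at 0.97 and 0.60 under these, and MER48 at 0.90 and 0.52. HERVH-int (0.80, SE 0.025) and LTR7 (0.81, SE 0.032) lay close to both.

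There were 6 features above HERVH48-int in this comparison. Besides HERVH-int and LTR7 they were the ribosomal RNA entries SSU-rRNA_Hsa (1.52, SE 0.50) and LSU-rRNA_Hsa (1.36, SE 0.35), U3, a small nucleolar RNA (0.87, SE 0.15), and MamRep1161, whose value of 0.93 (SE 0.64) did not pass. The standard errors of the rRNA entries are far above that of HERVH48-int. Between HERVH48-int and MER48 came 4 more, UCON18 (0.75, SE 0.57, not passing), UCON27 (0.74), tRNA-Leu-TTA(m) (0.72) and 7SK, a regulator of transcription elongation (0.70).

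RSeT+DT against primed cells spans both steps. HERVH48-int had a log2 fold change of 3.99 (SE 0.050), or 15.8-fold, and MER48 one of 3.51 (SE 0.059), or 11.4-fold. Here 45.8% of the 4665 features passed in edgeR, 25.1% higher and 20.6% lower. Of the 1232 other than simple repeats 25.1% were higher and 32.9% lower, with a median of -0.057, against 30.3% and 26.2% with interspersed scaling and 11.4% and 58.8% with library totals. HERVK-int (5.93), ACRO1 (4.94) and ALR/Alpha (4.21) were the features above HERVH48-int, and LTR5_Hs (3.86) came between it and MER48. The 3 comparisons share groups, so they are not independent of each other. Of the gain in deposited CPM from primed to RSeT+DT cells, the step to RSeT held 63.1% for HERVH48-int and 65.8% for MER48. On the log2 scale of CPM these shares were 83.8% and 83.7%. They depend on the scaling and were not computed under another one. With TMM the 2 log2 steps were 3.23 and 0.75 for HERVH48-int and 2.83 and 0.68 for MER48. With interspersed scaling they were 3.07 and 0.97, and 2.67 and 0.90, so the step to RSeT held a smaller share there.

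**Figure D2:**
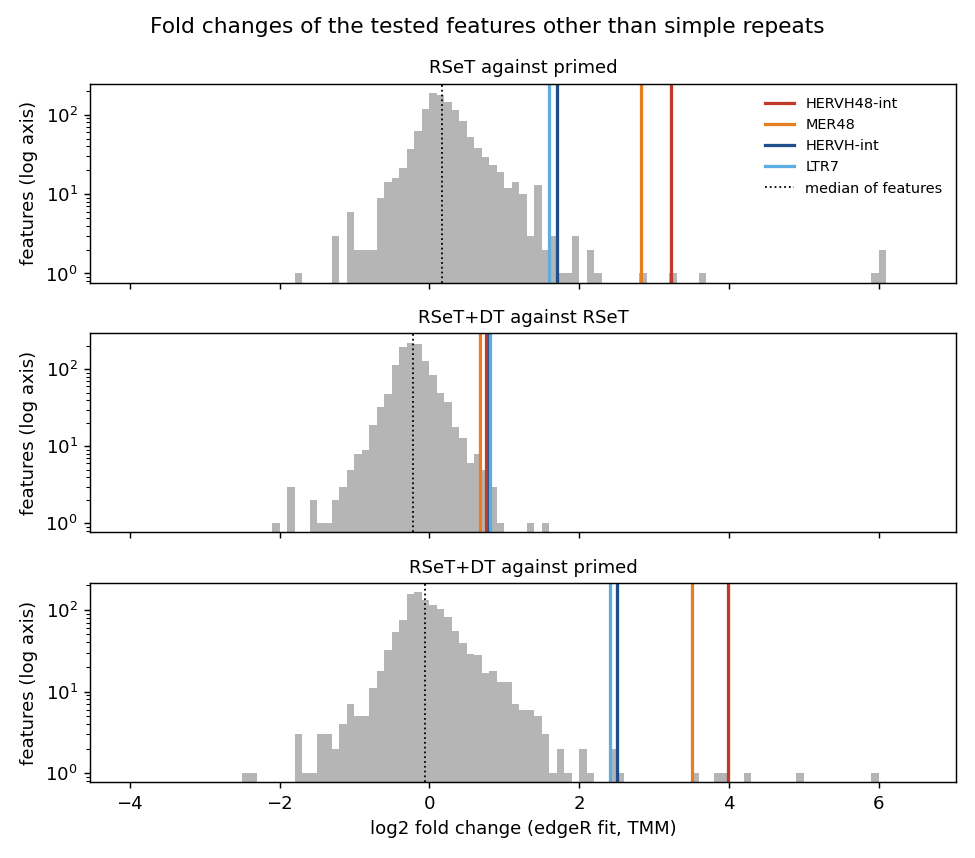
Log2 fold changes (x axis) of the 1232 tested features other than simple repeats in each comparison, as a histogram on a log axis, with lines for HERVH48-int, MER48, HERVH-int and LTR7 and a dotted line at the median. HERVH48-int and MER48 lie to the right of HERVH-int and LTR7 in both comparisons with primed cells, while all 4 lie between 0.68 and 0.81 in RSeT+DT against RSeT cells.

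The size of these fold changes depended on the scaling, as all features shift together. Relative to TMM, the median feature moved by -0.13, -0.15 and -0.29 on the log2 scale with library totals, in the order RSeT against primed, RSeT+DT against RSeT, RSeT+DT against primed. It moved by -0.16, 0.22 and 0.058 with interspersed scaling. Over the 14 settings, single libraries left out included, HERVH48-int ranged from 3.07 to 3.26 in RSeT against primed cells, from 0.60 to 0.97 in RSeT+DT against RSeT cells and from 3.68 to 4.04 in RSeT+DT against primed cells. MER48 ranged from 2.65 to 2.89, from 0.52 to 0.90 and from 3.18 to 3.60. Both stayed above 0 in each of these settings.

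**Figure D3:**
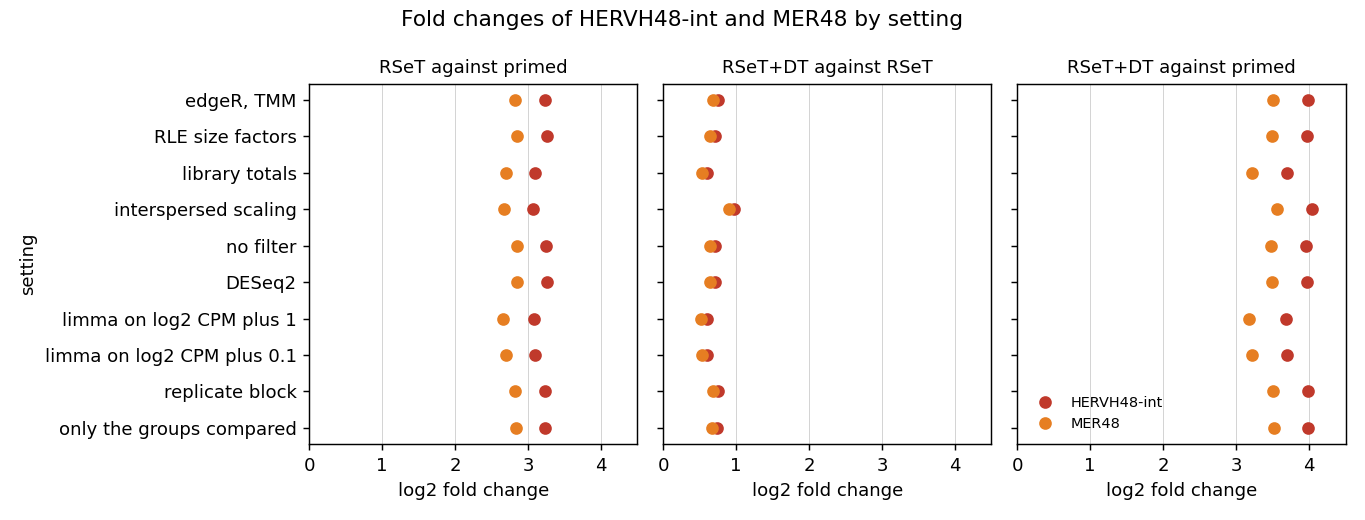
Log2 fold change (x axis) of HERVH48-int and MER48 in the 3 comparisons under each setting (y axis) other than those that leave out a library. HERVH48-int ranges from 3.07 to 3.26 in RSeT against primed cells. The spread across settings is widest relative to the value in RSeT+DT against RSeT cells, at 0.60 to 0.97.

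Count ratios within a library do not depend on the scaling. They say how much more or less the counts of a repeat changed than those of another, not which is more abundant, because the summed lengths of the copies differ. With 2 libraries a group no exact two-sided permutation test could go below p = 0.333, and none was run on these ratios.

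The internal part gained more counts than the LTR on the way from primed to RSeT cells. Per count of MER48 there were 2.91 and 3.15 counts of HERVH48-int in primed cells, 3.93 and 4.08 with RSeT and 4.11 and 4.32 with RSeT+DT. Both primed values lie below all others, while those of RSeT and RSeT+DT cells are neighbours. The ratio was 1.32-fold higher in RSeT than in primed cells, a log2 change of 0.40 with an SD of 0.090 for the difference of single libraries. From RSeT to RSeT+DT cells the log2 change was 0.074, with an SD of 0.066. Both RSeT+DT values lie above both RSeT values. The counting interval of RSeT replicate 1 (3.82 to 4.03) lies below that of RSeT+DT replicate 2 (4.15 to 4.51), while RSeT replicate 2 (3.92 to 4.25) overlaps with both RSeT+DT libraries, and RSeT+DT replicate 1 (3.95 to 4.27) with both RSeT libraries.

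Against HERVH-int, which it resembles in name, HERVH48-int stood at 0.327% and 0.304% of its counts in primed cells. It stood at 0.924% and 0.897% in RSeT cells and at 0.869% and 0.894% in RSeT+DT cells. The ratio was 2.89-fold higher in RSeT than in primed cells, a log2 change of 1.53 with an SD of 0.081. RSeT+DT cells differed from RSeT cells by -0.048, with an SD of 0.042. Both RSeT+DT values lie below both RSeT values. The counting intervals of RSeT replicate 1 (0.913% to 0.936%) lie above those of both RSeT+DT libraries (0.854% to 0.883% and 0.878% to 0.910%), while the interval of RSeT replicate 2 (0.881% to 0.914%) overlaps with both. Both primed values lie far below the other 4, which range from 0.869% to 0.924%.

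The LTRs gave the same picture. MER48 stood at 0.805% and 0.715% of the LTR7 counts in primed cells, 1.84% and 1.72% in RSeT cells and 1.65% and 1.61% in RSeT+DT cells. The ratio was 2.34-fold higher in RSeT than in primed cells (log2 change 1.23, SD 0.14) and lower by a log2 change of -0.13 (SD 0.071) in RSeT+DT than in RSeT cells. No test of these differences between the families was made, and closely related repeats can share reads, whose part in the ratios was not tested.

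**Figure D4:**
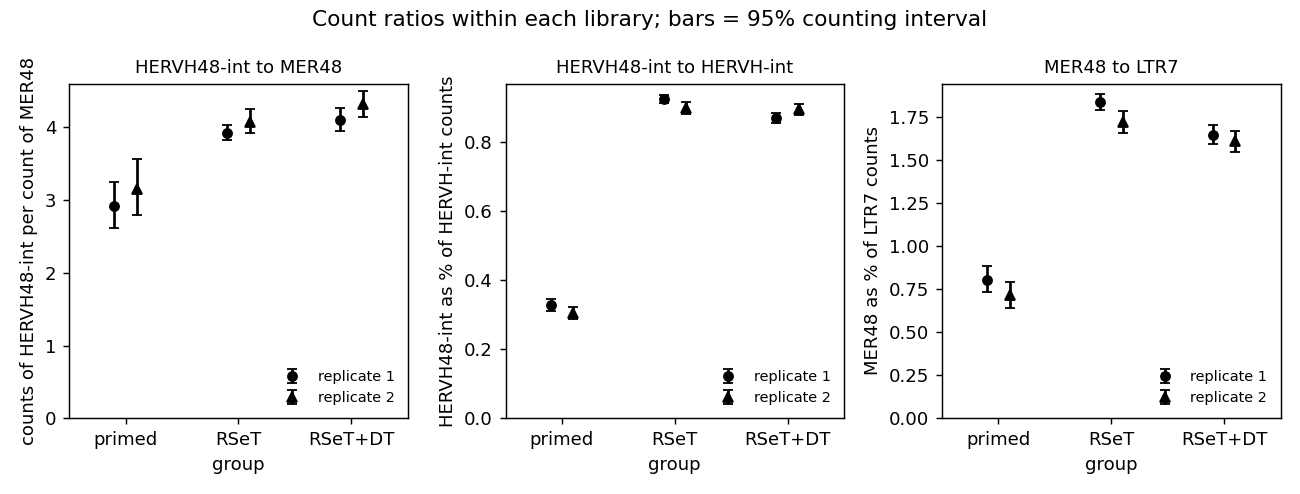
Count ratios in each library (points, with 95% counting intervals), as HERVH48-int per MER48 (left), HERVH48-int as a percentage of HERVH-int (middle) and MER48 as a percentage of LTR7 (right), each y axis from 0. The primed libraries are lowest in every panel, for example 0.327% and 0.304% in the middle, and RSeT and RSeT+DT libraries lie near each other.

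The features with the nearest profile were sought among 1137 features other than simple repeats with a mean of at least 50 counts, by the root mean square distance of log2(CPM + 1) over the 6 libraries after centring each on its own mean. HERVH48-int and MER48 were 0.23 apart, with a Pearson's r of 0.9996, a description over 6 libraries in 3 groups that share each library's scaling. Next to HERVH48-int came LTR5_Hs (distance 0.24, r 0.990), then HERVH-int (0.70), LTR7 (0.75), LTR5 (0.75) and LTR17 (0.86), the LTR of the HERVW family. Their r with HERVH48-int was 0.990 for HERVH-int, 0.988 for LTR7, 0.995 for LTR5 and 0.9994 for LTR17. An r this high is thus not particular to the 2 members. MER48 had the same 5 nearest features in the same order, from LTR5_Hs at 0.36 to LTR17 at 0.64. For HERVH48-int, LTR5_Hs stands apart from the other 4, which lie between 0.70 and 0.86, while for MER48 the distances step up more evenly (0.36, 0.49, 0.53, 0.54 and 0.64). In RSeT+DT against RSeT cells, where HERVH48-int stood at 0.75, LTR5_Hs rose by 0.20 (SE 0.044) in edgeR with TMM, stood at 0.044, not passing, with library totals and rose by 0.42 with interspersed scaling.

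**Figure D5:**
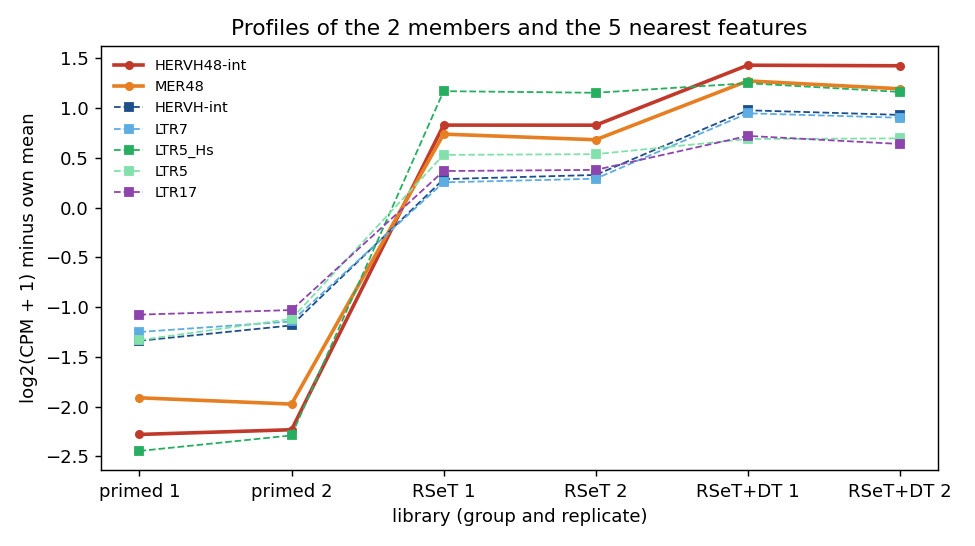
Log2(CPM + 1) minus the mean over the 6 libraries (y axis) for HERVH48-int, MER48 (solid lines) and their 5 nearest features (dashed lines), by library (x axis). All 7 are lowest in the primed libraries, and LTR5_Hs, at a distance of 0.24 from HERVH48-int, is the one closest to it in range.

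Lists of related repeats, chosen with earlier results of these data known, show what else moved beside HERVH48. The shares to read them against are those of the 1232 features under the same scaling. With TMM they were 51.1% higher and 8.69% lower in RSeT against primed cells, and 6.41% and 52.6% in RSeT+DT against RSeT cells. Interspersed scaling gave 29.1% and 23.5% in the first comparison and 21% and 18.4% in the second. Library totals gave 30.5% and 17%, and 3.08% and 70.8%. Each count below is from edgeR, with TMM unless another scaling is named. A call is said to hold where its direction and its adjusted p below 0.05 were also found with RLE, library totals, interspersed scaling and without each library in turn.

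HERVH, the family nearest in name, was followed through HERVH-int and 5 LTR7 subfamilies. How close the families are in sequence was not measured. Of these 6, 4 rose and none fell between primed and RSeT cells, with a median of 0.81 against 0.17 for the 1232 features. HERVH-int, LTR7 and LTR7Y (1.14) held. LTR7B (0.087) did not, at -0.045 with library totals, -0.075 with interspersed scaling, 0.064 when RSeT replicate 1 was left out, and 0.089 and 0.090 when either primed library was. With DZNep and TSA added, 4 again rose and none fell, with a median of 0.32 against -0.22. The same 3 held, with LTR7Y at 0.38, while LTR7C (0.26) stood at 0.20 without RSeT replicate 1 and 0.11 with library totals. LTR7B stood at -0.044 there and did not pass, but fell by 0.20 with library totals and rose by 0.18 with interspersed scaling. LTR7A, at a mean of 1.02 to 1.29 CPM in the 3 groups, passed in neither comparison.

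Other families of the HERVH and HERVF group had no common direction. Of 17 names 14 could be tested, with 3 higher and 5 lower in RSeT than in primed cells and a median of -0.054 (2 and 8 with interspersed scaling). The 4 calls that held were the rises of HERV-Fc1-int (0.84, SE 0.13) and HERV-Fc2-int (1.71, SE 0.35) and the falls of HERVFH19-int (-0.69) and LTR21A (-0.40). HERV-Fc2-int had few counts, at 0.48 and 0.95 CPM in the primed libraries and a mean of 2.06 CPM in RSeT cells. Between RSeT and RSeT+DT cells 1 rose and 3 fell, with a median of -0.11. With interspersed scaling the balance turned, to 4 higher and none lower with a median of 0.11. The rise of LTR19A (0.41) was the call that held. HERVH48-int and MER48, at 3.23 and 2.83, thus stood above each of the 14 in RSeT against primed cells, with no test of the difference.

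The syncytin families hold the proteins that act beside suppressyn in trophoblast: HERV17-int and LTR17 belong to HERVW, the family of syncytin-1, and MER50-int and its LTRs to that of syncytin-2. Of 6 names 5 rose between primed and RSeT cells and none fell, with a median of 0.57, and all 5 held. They were led by LTR17 (1.56, SE 0.046), MER50-int (0.87) and HERV17-int (0.69). Between RSeT and RSeT+DT cells 2 rose and 3 fell, with a median of -0.11. With interspersed scaling the balance turned, to 3 higher and none lower with a median of 0.11. Of these calls, only the rise of LTR17 (0.46, SE 0.044) held. HERV17-int (0.11) stood at -0.042 with library totals. HERVH48-int and MER48 had larger fold changes than each of the 6 in every comparison, with no test of the difference.

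LTRs taken as used in trophoblast, with the internal part MER41-int, served as a check for another cell type. Whether each of them is used in trophoblast was not examined here. Of 14 names 8 rose and 3 fell between primed and RSeT cells, with a median of 0.25 against 0.17 for the 1232 features, of which 51.1% rose. Of these calls 7 rises, among them LTR2 (0.97) and LTR3A (0.84), and 1 fall, that of MER39B (-0.26), held. The falls of MER11D (-0.24) and LTR10A (-0.19) did not hold. With DZNep and TSA added, 2 rose and 9 fell, with a median of -0.15 against -0.22 for the 1232 features, of which 52.6% fell. With interspersed scaling the balance turned, to 5 higher and 1 lower with a median of 0.066, and MER41A (-0.12) and MER41B (-0.12) passed as higher (0.10 and 0.095). The rise of LTR3A (0.33) and the fall of MER39 (-0.35) held. Their summed share of repeat counts was 0.257% to 0.267% in primed, 0.281% to 0.286% in RSeT and 0.227% to 0.241% in RSeT+DT libraries, and none of the 14 was at 0 in any library. With library totals, the scale of this share, 70.8% of the 1232 features were lower in RSeT+DT than in RSeT cells. Their median was -0.37, against -0.31 for the list. In bulk RNA a change in the number of cells that use a repeat and a change in its RNA per cell cannot be told apart.

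Repeats tied to the naive state and to the 8-cell embryo were followed as well. All 5 of the naive list, HERVK-int, LTR5_Hs, SVA_D, SVA_E and SVA_F, rose in RSeT against primed cells, and HERVK-int, LTR5_Hs and SVA_F (0.41) held. In RSeT+DT against RSeT cells 2 rose, SVA_E (0.28) and LTR5_Hs, and neither held: none rose and 2 fell with library totals, and all 5 rose with interspersed scaling. HERVK-int stood at -0.056 there, not passing, but fell by 0.097 with RLE and by 0.21 with library totals and rose by 0.16 with interspersed scaling. HERVH48-int ranged from 0.60 to 0.97 in that comparison over the 14 settings. Of the 8-cell elements HERVL-int, MLT2A1 and MLT2A2, all 3 rose in RSeT against primed cells, and MLT2A2 (0.46) and HERVL-int (0.36) held. In RSeT+DT against RSeT cells HERVL-int (-0.32) and MLT2A1 (-0.24) fell, of which HERVL-int held, and with interspersed scaling 1 was higher and 1 lower.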

How the data were processed

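Per the submitters' processing notes, featureCounts, Subread 2.14.2, STAR 2.7.8a and Trimmomatic 0.39 were used on GRCh38 (hg38). What each did, with which repeat annotation, strand setting and handling of reads that map to many places, is not given in the sources used here. The authors deposited raw counts per repeat name, summed over its genomic copies, for 15600 names, and a CPM table of 7383 of them. Its CPM equal counts scaled by the total of each library over these 7383 names, within 0.0044.

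Counts were fitted with edgeR 4.0.16 (R 4.3.3), all 6 libraries together, TMM scaling, filterByExpr at 10 counts and a total of 15, and Benjamini-Hochberg adjustment over 4665 features at 0.05. The fit has 3 residual degrees of freedom. Standard errors come from the fold change and its F statistic. The fit was tested on simulated data, drawn with a common spread for all features. That simulation did not compare scalings. Transcripts were aligned with blastn 2.17.0. A common coefficient of variation of 5.49% was estimated. Chi-square per degree of freedom between replicates was 30.5, 6.02 and 17.0, in the order primed, RSeT, RSeT+DT.

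HERVH48-int, MER48, all lists and the rule for nearest features were chosen with earlier results of these data known. The named repeats are both members, HERVH-int, LTR7, the 5 nearest features, those with a larger rise where 10 or fewer, and list members by smallest adjusted p. The 4 features between HERVH48-int and MER48 in RSeT+DT against RSeT cells, LTR5_Hs between them against primed cells, and the list members named for holding or losing a call were chosen after their values were seen, as were the alternatives for lists other than HERVH and LTR7.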

Additional observations from a re-analysis of the deposited data

How the results depend on the processing

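Both members kept a positive fold change in each comparison under RLE, library totals, interspersed scaling, no filter, DESeq2, limma on log2 CPM plus 1 or 0.1, the replicate block, only the groups compared, and each library left out. In RSeT against primed cells HERVH48-int and MER48 stood at 3.10 and 2.697 with library totals, 3.07 and 2.67 with interspersed scaling, 3.08 and 2.65 with limma on CPM plus 1 and 3.10 and 2.69 on CPM plus 0.1. In RSeT+DT against RSeT cells they stood at 0.60 and 0.52 with library totals, 0.97 and 0.90 with interspersed scaling, 0.60 and 0.52 with limma plus 1 and 0.60 and 0.53 plus 0.1. With RLE, with no filter and in DESeq2 they stood at 0.71 and 0.64, a shift that exceeds the spread between replicates for HERVH48-int, as does 0.74 with only the groups compared. In RSeT+DT against primed cells they stood at 3.70 and 3.22 with library totals, 3.68 and 3.18 with limma plus 1 and 3.70 and 3.22 plus 0.1, and HERVH48-int at 4.04 with interspersed scaling. Without single libraries HERVH48-int ranged from 3.23 to 3.26, 0.73 to 0.79 and 3.97 to 4.04 and MER48 from 2.78 to 2.89, 0.62 to 0.75 and 3.45 to 3.60.

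Of all features, 1064 were higher and 1110 lower in RSeT against primed cells, 1168 and 810 in RSeT+DT against RSeT, and 1173 and 962 in RSeT+DT against primed cells. Library totals gave 683 higher in the first and 608 higher and 1787 lower in the last. Interspersed scaling gave 640 higher and 1684 lower in the first and 1732 higher and 281 lower in the second. DESeq2 gave 686 lower in the first. Limma on CPM plus 1 gave 641 higher, 770 higher, and 628 higher and 1895 lower, and plus 0.1 gave 622 higher, 758 higher, and 621 higher and 1841 lower. Without single libraries, the counts ranged from 780 to 913 higher and 801 to 891 lower, 905 to 1065 and 616 to 720, and 1003 to 1154 and 748 to 801. The list of HERVH and LTR7 had no member lower with TMM and 1 lower with library totals and both limma fits in each comparison, and 1 with interspersed scaling in RSeT against primed cells; 3 to 4, 3 to 4 and 3 were higher without single libraries.

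The replicate block, with same-number correlations of 0.0018, -0.040 and 0.050 between groups, gave 1053 higher and 1104 lower, 1148 and 801, and 1166 and 961, and log2 fold changes within the spread between replicates. Replicates share a number only. The ratio of HERVH48-int to MER48 ranged from 0.34 to 0.46, 0.037 to 0.11 and 0.42 to 0.53 (log2) without single libraries, that of HERVH48-int to HERVH-int from 1.48 to 1.58, -0.069 to -0.026 and 1.43 to 1.54, and that of MER48 to LTR7 from 1.14 to 1.31, -0.17 to -0.081 and 1.02 to 1.19. MER48 had 450 and 348 counts in primed cells, a counting error of 0.10 (log2) between these libraries, which were deeper than those of RSeT+DT cells. With 1 library of a group left, its spread is assumed to be that of the others. The cause of these shifts was not tested.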
